A study of Mus musculus with 4 samples.

Results

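The CREB and ATF transcription factors Creb1, Crem, Atf1, Atf2, Atf3, Atf4 and Atf5 were examined in mouse hippocampal CA1 tissue. Their spots were taken by gene symbol from the platform annotation. The genes themselves were chosen with earlier results of these data known. All 7 genes were on the array, on 9 of its 16281 spots and among 10698 annotated genes. Creb1 and Atf2 had 2 spots each, and the other genes 1. The 4 arrays compared 2 groups of young male C57BL/6J mice, an inbred strain. Both groups received MK-801, a blocker of NMDA glutamate receptors. The group called MK received the drug alone, and the group called MK C+S was conditioned to fear a context 1 h after the injection. The dose is labelled as 300 micrograms per g body weight, which is far above doses usual in mice and is printed as labelled. Conditioning was 2 min in an unfamiliar chamber followed by a foot shock of 1 s at 0.5 mA, repeated to 3 shocks in all. The RNA dates from 1, 2, 4 and 6 h past the final shock, with 1 array for each time. MK was labelled green and MK C+S red on every array. How many animals stand behind each RNA was not given in the sources used here, and no group without the drug was analysed here. The comparison therefore addresses conditioning under NMDA receptor blockade, and not conditioning alone. Since MK received the drug alone, effects of the chamber, of the shocks and of learning cannot be told apart. Conditioning below stands for all of these together.

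Each value is the log ratio of the red and green channels of a spot. It was read as a base-10 logarithm, which the sources used here do not state, and was centred on the median of the measured spots of its array. The sign convention is not stated either, and by the custom of dividing red by green, values above 0 likely stand for a higher level in MK C+S. No time had a replicate array, so a value at a single time carries no replicate error. Spots of the same gene gave the only spread within an array. Its pooled SD was 0.225, 0.204, 0.168 and 0.329 in order of time, and these SDs serve below as the yardstick for single values. The yardstick is wide. The median absolute log ratio of all genes was 0.097, 0.096, 0.095 and 0.13, so most genes lie within it. At 6 h it exceeds 2-fold, which is 0.301 in log10 units. A shared dye effect and an effect of conditioning cannot be told apart in a mean over the arrays, since no dyes were swapped. Log ratios hold no level, so the CA1 label could not be checked by marker abundance, and fewer cells of a type could not be told apart from less RNA per cell.

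CREB and its relatives are basic leucine zipper factors that bind, in pairs, the cAMP response element (CRE). Creb1, Crem and Atf1 form the core family. Kinases of the cAMP, calcium and MAP kinase pathways phosphorylate them, and coactivators such as CBP are then recruited. In hippocampal neurons CREB couples NMDA receptor and calcium signals to immediate early genes and is needed for long-term memory. Atf2 is activated by the stress kinases JNK and p38. Atf4 and Atf5 are controlled mainly at translation, in the response to amino acid shortage and unfolded protein. Atf3 is itself an immediate early and stress response gene.

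The sites that these factors bind were looked for in promoters from RefSeq (build GRCm38.p6), each running from 250 bases before to 50 after a gene's start. The letters searched were the palindromic full CRE TGACGTCA, the CRE core TGACG, which lies within every full CRE and reads CGTCA on the other strand, and TGATGCAA, which reads TTGCATCA on the other strand, the composite site of ATF4 with C/EBP factors. All were searched on both strands. Promoters were given for 6 of the 7 genes, Crem being the gene without an entry. None of these 6 held the full CRE, 3 held the core (Atf1, Atf3 and Atf4) and 1 held the composite site (Atf3). Of all 32851 promoters, 1.79% held the full CRE, 20.8% the core and 0.895% the composite site. Of the 8455 genes of the array with a promoter, 2.70%, 30.8% and 0.852% held them. The promoters of Atf1 and Atf3 are shown for the contrast between a lone core and a core with a composite site. Those of Fos, a textbook CREB target, and Chac1, a textbook ATF4 target, show the same letters in genes downstream. Each stretch is the 250 bases upstream of the start, 5′ to 3′ on the gene's strand, with the matched letters in capitals.
Atf1, chr15:100227609-100227858, plus strand: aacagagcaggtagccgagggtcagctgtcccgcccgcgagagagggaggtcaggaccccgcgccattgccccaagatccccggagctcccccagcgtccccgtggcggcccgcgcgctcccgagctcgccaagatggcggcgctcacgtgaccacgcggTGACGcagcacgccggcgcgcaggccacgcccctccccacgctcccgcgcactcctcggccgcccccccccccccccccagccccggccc
Atf3, chr1:191183334-191183583, minus strand: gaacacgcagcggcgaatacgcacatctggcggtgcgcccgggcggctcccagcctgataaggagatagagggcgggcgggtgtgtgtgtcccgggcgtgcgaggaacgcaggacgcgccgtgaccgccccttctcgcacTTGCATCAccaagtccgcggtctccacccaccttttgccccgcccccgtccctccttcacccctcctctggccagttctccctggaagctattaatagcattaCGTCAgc
Fos, chr12:85473640-85473889, plus strand: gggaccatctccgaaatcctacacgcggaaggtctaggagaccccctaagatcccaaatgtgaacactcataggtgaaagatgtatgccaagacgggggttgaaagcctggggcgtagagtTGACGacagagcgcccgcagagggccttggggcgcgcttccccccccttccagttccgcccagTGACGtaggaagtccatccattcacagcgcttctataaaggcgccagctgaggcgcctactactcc
Chac1, chr2:119350992-119351241, plus strand: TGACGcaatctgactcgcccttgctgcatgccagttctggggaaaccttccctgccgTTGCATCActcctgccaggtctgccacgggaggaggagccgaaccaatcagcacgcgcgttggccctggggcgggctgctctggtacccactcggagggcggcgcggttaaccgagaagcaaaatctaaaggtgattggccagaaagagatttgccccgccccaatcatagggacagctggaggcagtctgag
Counting back from the start, the Atf1 core lay at -90 to -86 and the Atf3 core at -7 to -3, with the composite site of Atf3 at -110 to -103. Atf4 held a core at -12 to -8 and another at 41 to 45. A match describes letters in this window and is not evidence of binding.

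Across the 7 genes, log ratios stayed below 2-fold except at the spot of Atf2. The median absolute log ratio of the family was 0.13, 0.15, 0.071 and 0.051 in order of time. That of all genes was 0.097, 0.096, 0.095 and 0.13. The family was thus above all genes at 1 and 2 h and below them at 4 and 6 h. Atf1 stood between 1.43-fold and 1.63-fold on the positive side, Atf2 was far below 0 at 2 and 4 h, and Creb1 and Crem stayed near 0. At 1 h 5 genes had a value, 1 positive and 4 negative, with a median of -0.041. The other times had values for all 7 genes. Positive values numbered 4, 3 and 4 at 2, 4 and 6 h, with medians of 0.013, -0.017 and 0.0014. Genes of the family at 2-fold or more numbered 0 of 5, 1 of 7, 1 of 7 and 0 of 7 in order of time, and Atf2, on the negative side, was the 1 gene at both middle times. Among all genes measured, 8.47%, 6.58%, 7.07% and 21.9% passed 2-fold at 1, 2, 4 and 6 h. Of all genes measured, 5.12%, 2.44%, 2.49% and 10.2% passed it on the positive side and 3.35%, 4.14%, 4.58% and 11.7% on the negative side. With 7 genes, the counts do not stand apart from those shares.

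**Figure D1:**
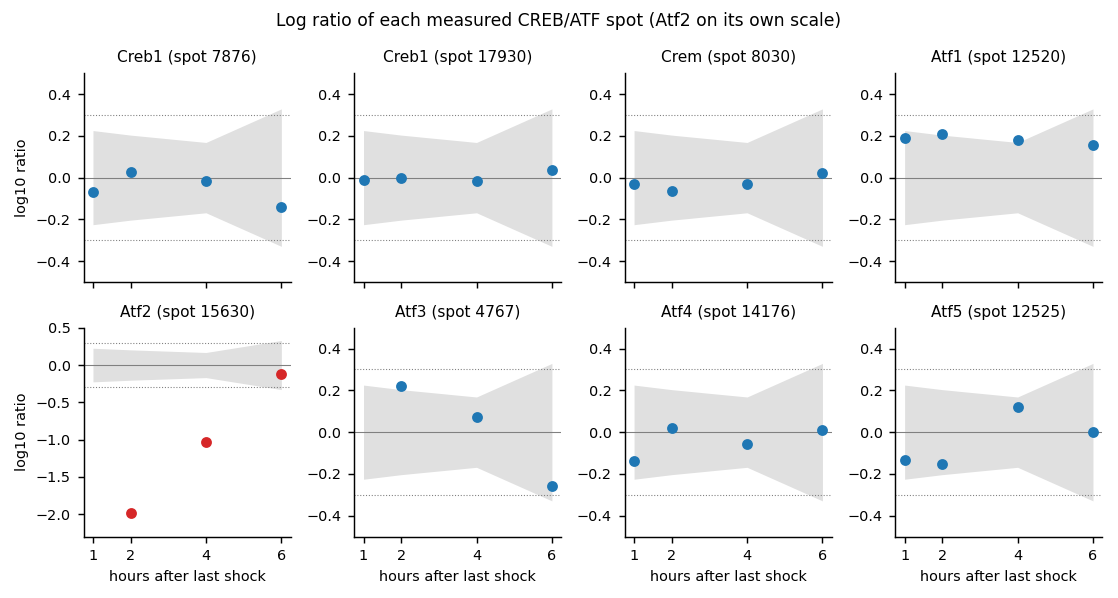
Log10 ratio (vertical axis) of each measured CREB and ATF spot against hours after the last shock, 1 point per array. The grey band is the pooled SD between same-gene spots on that array, the dotted lines mark 2-fold, and Atf2 has its own vertical scale. The 4 Atf1 points lie between 0.16 and 0.21, and the Atf2 points rise from -1.99 at 2 h to -0.12 at 6 h.

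Creb1 encodes the founding member of the family. Its first spot gave -0.071, 0.026, -0.017 and -0.14 at 1, 2, 4 and 6 h, and its other spot gave -0.011, -0.00058, -0.017 and 0.039. The spots differed by 0.060, 0.026, 7.3e-05 and 0.18 in order of time, each less than the pooled SD of that array. All 8 values were likewise smaller than that SD, as were those of most genes. The gene mean over the 4 arrays was -0.024 ± 0.028 (SD, n = 4 arrays), with a 95% interval in limma's moderated model of -0.14 to 0.091 and an adjusted p of 0.856. A mean difference of 2-fold in either direction, which is 0.301 in log10 units, lies outside that interval. The interval concerns the mean over the 4 times and does not bound a difference at a single time.

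Crem encodes activators and, from an internal promoter, the inducible repressor ICER, and its spot does not tell these products apart here. The values were -0.032, -0.065, -0.028 and 0.024 at 1, 2, 4 and 6 h. None exceeded 1.16-fold, and the mean was -0.025 ± 0.037 (SD, n = 4 arrays; 95% interval -0.14 to 0.091; limma adjusted p 0.853). Its sign at 6 h was opposite to that at the other times, at a size below the spread between spots.

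Atf1 encodes the closest relative of Creb1, with which it can pair. Its single spot gave 0.19, 0.21, 0.18 and 0.16 at 1, 2, 4 and 6 h. In fold terms this was 1.56, 1.63, 1.51 and 1.43, so the ratio was positive and of similar size on all 4 arrays. Atf1 was the highest of the measured family members at 1, 4 and 6 h and was below Atf3 at 2 h. It was above the pooled SD between spots at 2 and 4 h and below it at 1 and 6 h. The share of all genes at or below Atf1 was 88.4%, 92.6%, 89.7% and 78.8% in order of time, so no single value was extreme for its array.

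Atf1 varied little between arrays, as did Creb1 and Crem, but about a value away from 0. Its mean was 0.18 ± 0.024 (SD, n = 4 arrays), or 1.53-fold, with a 95% interval of 0.070 to 0.298, which is 1.17-fold to 1.99-fold. It was the 1 family member of 5 with the same sign on all 4 arrays, which 21.8% of the 8553 genes measured on every array had, 10.1% on the positive side. The SD between arrays was as small in 69 of those genes (0.807%), against a median SD of 0.125; Creb1 and Crem had SDs of 0.028 and 0.037. Log ratios at or above 0.16, the lowest value of Atf1, were found on all 4 arrays for 33 genes (0.386%), and at or below the same size on the negative side for 55 (0.643%). The 69 and the 33 include Atf1 itself. Both limits were set by its own values, so these counts describe it and are not a test. The unadjusted limma p of the mean was 0.00707, rank 138 of all genes and 44 of those with a positive mean. The adjusted p was 0.416, so Atf1 was not called. No gene was called for the mean (0 of 8553, or 0%), while 973 genes (11.4%) had an unadjusted p under 0.05, 4.26% of all genes positive and 7.12% negative. Of the 5 family members tested, 1 was among them, Atf1. The slope of Atf1 on time was -0.0092 per h (95% interval -0.071 to 0.053; limma adjusted p 0.927). With natural or base-2 logs the same mean would be 1.20-fold or 1.14-fold.

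**Figure D2:**
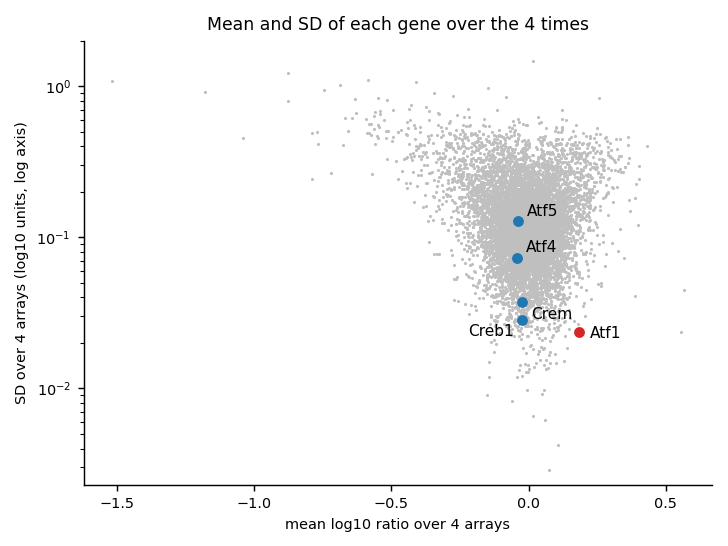
Mean log10 ratio over the 4 arrays (horizontal axis) and SD over the same arrays in log10 units (vertical log axis) for each of the 8553 genes measured at every time, 1 grey point per gene. Creb1, Crem, Atf4 and Atf5 (blue) have means between -0.041 and -0.024, and Atf1 (red) has a mean of 0.18 at an SD of 0.024.

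The spots next to that of Atf1 were mostly of the opposite sign. Of the 10 nearest by number, 6 had a value at 1 h, all of them negative (median -0.12). Spots 12515 to 12518, among those 10, had no ratio on any array. The medians of the measured neighbours at 2, 4 and 6 h were -0.15, -0.19 and -0.30, where Atf1 was positive. Positive neighbours numbered 2 of 5 at 2 h, 2 of 6 at 4 h and 1 of 6 at 6 h, and the adjacent spot 12521, of the chemokine gene Ccl6, was at 0.18 at 2 h and 0.089 at 4 h. After subtraction of the running median of 51 spots around each, Atf1 was at 0.22, 0.21, 0.21 and 0.31, with a mean of 0.24. Its 6 h value was then past 2-fold and about 2 times the value without that step.

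Atf2 encodes a stress-activated factor that pairs with Jun. One of its spots had an exact 0 on all 4 arrays, read here as no ratio. The other had no ratio at 1 h and gave -1.99, -1.04 and -0.12 at 2, 4 and 6 h. As base-10 logs these are 97.4-fold, 10.9-fold and 1.31-fold, or 7.30-fold at 2 h and 2.82-fold at 4 h as natural logs. The values at 2 and 4 h were beyond the pooled SD between spots, that at 6 h was not. Atf2 was the gene with rank 2 from the lowest of 10151 at 2 h and rank 19 of 10312 at 4 h. Both spots with adjacent numbers were also far below 0 at 2 h. Trhr, a hormone receptor gene at spot 15629, was at -3.10 at 2 h and had no ratio at 4 h, and Car1, a carbonic anhydrase gene at spot 15631, was at -2.66 at 2 h and -2.21 at 4 h. Ranks use the mean of a gene's measured spots, so they need not follow the single spots given here. The next numbers looked at, from 15633 to 15638, held 6 spots with no ratio on any array, and numbers beyond these were not looked at. On the other side Eif4e, at spot 15628, was near 0 (-0.095 and -0.098 at 2 and 4 h). No other measured spot checks Atf2, so a change of its RNA and an effect tied to these neighbouring spots cannot be told apart.

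**Figure D3:**
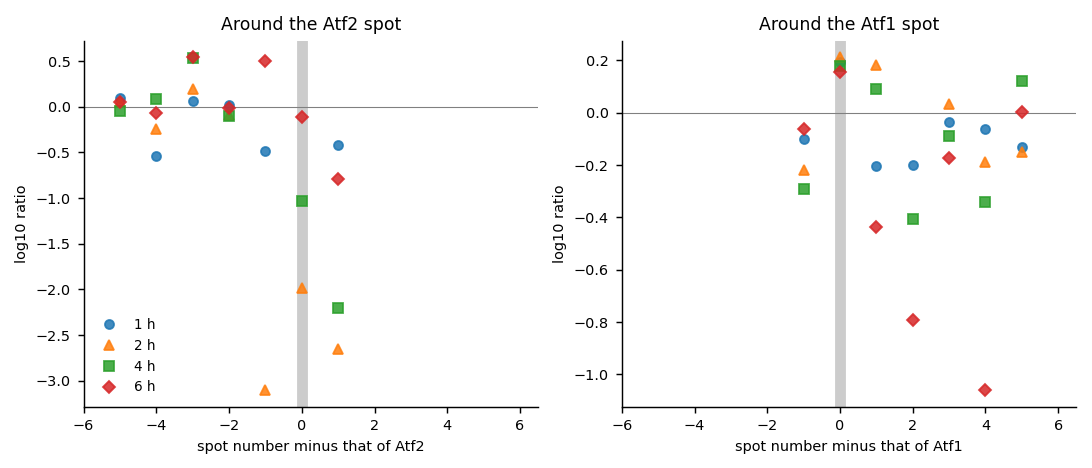
Log10 ratio (vertical axis) of the spots nearest by number to those of Atf2 (left) and Atf1 (right), with the spot number relative to each gene on the horizontal axis, 1 symbol per time, and the gene itself on the grey line. At 2 h the spots on both sides of Atf2 lie at -3.10 and -2.66 beside its own -1.99, whereas the spots next to Atf1 lie on the other side of 0 at 1 h.

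Atf2 was outside the limma test, which required a value on all 4 arrays. With a value on at least 3 arrays required, its mean was -1.05 (adjusted p 0.464) and its slope 0.47 per h (adjusted p 0.113), and neither was called. Kinases upstream of Atf2 and its Jun partners were tallied from a list of 16 genes, of which 15 were on the array. Of these, 4 of 13 measured were positive at 1 h and 4 of 15 at 2 h, with medians of -0.10 and -0.046, against 9 and 8 of 15 at 4 and 6 h. None of the 13 tested was called by limma in the mean, with 1 at an unadjusted p under 0.05. That gene was Jun, at 0.023, 0.20, 0.31 and 0.087 at 1, 2, 4 and 6 h. Mapk8, the gene of the kinase JNK1, was at 0.11, -0.24, -0.17 and -0.28.

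Atf3 had no ratio at 1 h. Its values were 0.22, 0.071 and -0.26 at 2, 4 and 6 h, or 1.67-fold positive, 1.18-fold positive and 1.81-fold negative. It was the highest of the family at 2 h and the lowest at 6 h. The value at 2 h exceeded the pooled SD between spots of that array, and those at 4 and 6 h did not. Under the rule of at least 3 arrays its slope was -0.12 per h with a limma adjusted p of 0.245.

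Atf4, whose protein drives genes of amino acid supply, was at -0.14, 0.018, -0.055 and 0.011 at 1, 2, 4 and 6 h. None of these exceeded the spread between spots. The mean was -0.041 ± 0.073 (SD, n = 4 arrays; 95% interval -0.17 to 0.086; limma adjusted p 0.770). Atf5, a relative of Atf4 expressed in neural progenitors and neurons, was at -0.13, -0.15, 0.12 and 0.0014. It was negative at both early times and positive at both late ones, all within the spread between spots. Its mean was -0.040 ± 0.13 (SD, n = 4 arrays; limma adjusted p 0.824), and its slope of 0.039 per h was not called (adjusted p 0.654). In the slope, limma called 0 of the 5 family members tested and 0 of 8553 genes (0%), with 1250 genes (14.6%; 4.64% positive, 9.97% negative) and no family member at an unadjusted p under 0.05.

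Genes with the closest pattern to each factor were those with the smallest root mean square difference of the 4 log ratios, among 8552 other genes. For Atf1 these were Pde9a, a cyclic GMP phosphodiesterase gene, at a difference of 0.019, and Poc1b, a centriole gene, at 0.023. Pde9a was at 0.17, 0.20, 0.20 and 0.15. For Creb1 they were Chmp2b (0.0098) and Mier2 (0.014), for Crem Il12rb2 (0.012) and Pla2g7 (0.012), for Atf4 Mc1r (0.015) and Ccna1 (0.021), and for Atf5 Cep170 (0.017) and Numa1 (0.019). A difference of at most 0.1 was shared with 295 genes for Atf1, 649 for Atf5 and 1426 for Atf4. It was shared with 2053 for Creb1 and 2039 for Crem, whose near-zero patterns are common.

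Other basic leucine zipper genes of the family and its partners showed no shared direction. Of 23 listed, 14 were on the array and all were measured at every time. Positive values numbered 8, 5, 9 and 6 at 1, 2, 4 and 6 h. The number past 2-fold was 0, 0, 0 and 4 (28.6%), against 8.47%, 6.58%, 7.07% and 21.9% of all genes. None of the 14 was called by limma in the mean, with 1 at an unadjusted p under 0.05. That gene, Ddit3, encodes CHOP, a partner induced by ATF4, and was at -0.30, -0.21, 0.0065 and -0.38. Batf, an AP-1 relative, was at -0.18, 0.12, 0.18 and 0.64. Nfil3, a repressor linked to the circadian clock, was at 0.12, -0.087, -0.17 and -0.38. Their slopes, 0.15 and -0.091 per h, had limma adjusted p of 0.137 and 0.200.

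Of the signals that act on CREB, 17 of 31 listed genes of kinases and cAMP production were on the array. Values at 2-fold or more numbered 1 of 15, 2 of 17, 1 of 17 and 0 of 17 in order of time. These are 6.67%, 11.8%, 5.88% and 0%, against 8.47%, 6.58%, 7.07% and 21.9% of all genes. Camk4, a nuclear calcium-dependent kinase that phosphorylates CREB, was at 0.18, 0.33, 0.12 and -0.012, with a mean of 0.15 (limma adjusted p 0.452). Prkaca, a catalytic subunit of protein kinase A, was at -0.039, -0.049, -0.0071 and -0.27. Gsk3b was at -0.49 at 1 h and between -0.061 and 0.026 later. Camk2b was at 0.045, -0.36, -0.00076 and -0.15. None of the 15 tested was called, nor had an unadjusted p under 0.05.

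Of 22 listed phosphatases and inhibitors of the pathway, 18 were on the array, and 6, 9, 10 and 6 were positive at 1, 2, 4 and 6 h. The number past 2-fold was 1 of 18, 0 of 18, 3 of 18 (16.7%) and 0 of 17, each on the positive side. Among all genes 8.47%, 6.58%, 7.07% and 21.9% passed either way. Dusp6 and Dusp1, which encode phosphatases of MAP kinases, were at 0.75 and 0.47 at 4 h, and the kinase gene Sik1, whose product restrains CREB coactivators, was at 0.37 at 1 h. These 3 genes were singled out after their values were seen. The calcineurin subunit Ppp3r1 was negative on all 4 arrays at -0.074, -0.094, -0.12 and -0.17 (mean -0.11, limma adjusted p 0.449). The phosphatase 1 gene Ppp1ca was also negative throughout, at -0.062, -0.13, -0.18 and -0.037, and so was the inhibitor gene Ppp1r1a, at -0.013, -0.22, -0.13 and -0.086. Ppp1cb was at 0.20, -0.14, 0.33 and 0.019. None of 17 tested was called, and none had an unadjusted p under 0.05. The main coactivator genes Crebbp and Ep300 were not analysed here. Of the listed coactivators, Fhl2, Fhl5 and Kat2b were on the array, and the acetyltransferase gene Kat2b was at -0.0023, -0.19, -0.28 and -0.018.

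Listed CREB target genes, 36 of 42 on the array, lay mostly below 0 at 1 h and above 0 later. Negative values numbered 23 of 34 at 1 h, and positive values 23, 25 and 22 of 36 at 2, 4 and 6 h. The medians were -0.092, 0.039, 0.050 and 0.027, where the medians of all genes lay between -0.0062 and 0.0013. The list was drawn up with earlier results of these data known, so the direction is not independent evidence. The share past 2-fold was 11.8%, 16.7%, 11.1% and 11.1%, against 8.47%, 6.58%, 7.07% and 21.9% of all genes. It was thus above that of all genes at 1, 2 and 4 h and below it at 6 h. Whether the list differs from other genes was not tested.

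Inhba, the activin subunit gene, was at 0.15, 0.40, 0.58 and 0.037, positive on all 4 arrays. Its mean of 0.29 had an unadjusted limma p of 0.0196, the 1 gene of 34 tested under 0.05, and an adjusted p of 0.427. Arc, which acts at synapses, was at -0.19, 0.38, 0.52 and 0.18, and Egr2 at -0.19, 0.44, 0.17 and 0.86. Ntrk2, the receptor of BDNF, was at 0.39, -0.37, -0.31 and -0.67, on the positive side at 1 h and the negative side later. Fos, whose core sites are shown above, was at -0.040, 0.15, -0.054 and 0.0036, and Bdnf at -0.017, 0.13, -0.053 and -0.0036. None was called in the mean or the slope.

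**Figure D4:**
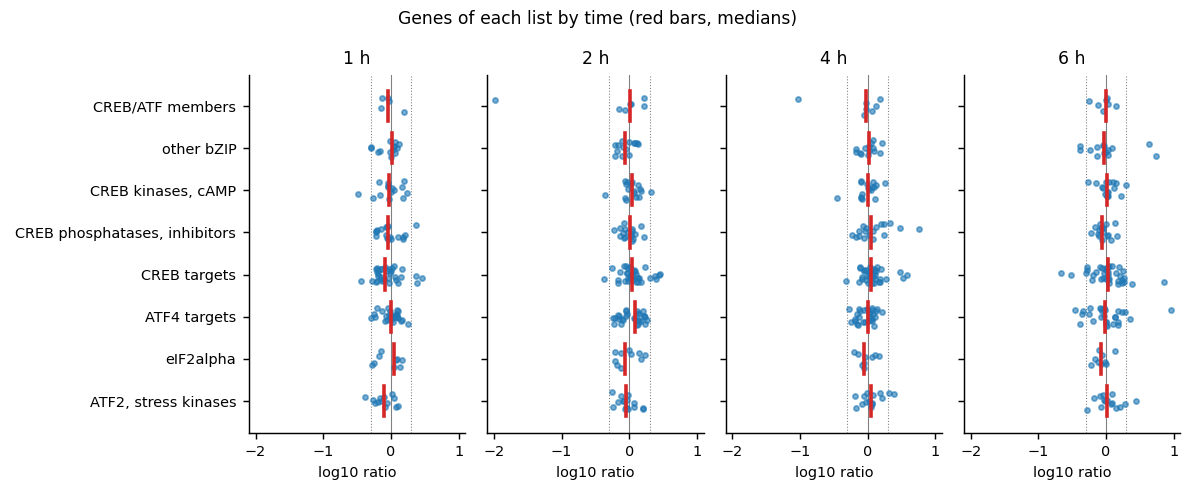
Log10 ratio (horizontal axis) of each measured gene in 8 lists at 1, 2, 4 and 6 h, 1 point per gene, with a red bar at the list median and dotted lines at 2-fold. The median of CREB targets lies at -0.092 at 1 h and at 0.039, 0.050 and 0.027 later, and the Atf2 point stands apart at 2 and 4 h.

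Targets of ATF4 and the amino acid response, 29 of 38 on the array, were divided in sign at each time, with 15 of 27 positive at 1 h and 16, 15 and 12 of 29 at 2, 4 and 6 h. The medians were 0.0070, 0.082, 0.0065 and -0.0087. None passed 2-fold at 1, 2 or 4 h, against 8.47%, 6.58% and 7.07% of all genes. At 6 h 6 did (20.7%), near the 21.9% of all genes. Chac1, a glutathione-degrading enzyme gene with the composite site shown above, was at -0.093, 0.13, 0.029 and 0.97. It was close to 0 except at 6 h, and its mean of 0.26 (limma adjusted p 0.560) rests on that array. The mitochondrial folate enzyme genes Shmt2 and Mthfd2 were negative on all 4 arrays. Shmt2 was at -0.058, -0.23, -0.24 and -0.36 (mean -0.22, unadjusted p 0.0106, adjusted p 0.416), and Mthfd2 at -0.23, -0.050, -0.16 and -0.34 (mean -0.19, adjusted p 0.427), both in limma. Asns, the asparagine synthetase gene, was at -0.21, 0.12, -0.048 and 0.13. In the same list Psat1 (0.10, 0.21, 0.063 and 0.13) and Fgf21 (0.25, 0.14, 0.016 and 0.10) were positive on all 4 arrays, named after their values were seen. Of 27 tested, limma called 0 in the mean, with 1 positive (Psat1) and 4 negative at an unadjusted p under 0.05. Among all genes 4.26% were positive and 7.12% negative at that limit. The pathway that acts on Atf4 through the initiation factor eIF2 was represented by 10 of 15 listed genes. Of these, 4 of 9, 5 of 10, 6 of 9 and 8 of 9 measured were negative at 1, 2, 4 and 6 h. The number past 2-fold was 0 at each time, against 8.47%, 6.58%, 7.07% and 21.9% of all genes. Eif2b1 was negative on all 4 arrays (-0.14, -0.19, -0.20 and -0.098; limma adjusted p of the mean 0.427), as was the kinase gene Eif2ak2 (-0.18, -0.13, -0.039 and -0.12). Eif2b2 was at 0.16, -0.13, -0.15 and -0.22. Ppp1r15a was mostly on the positive side, at 0.073, 0.23, 0.068 and -0.0052.

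Genes were also grouped by the letters in their promoters, which were given for 8455 genes of the array. The full CRE was present in 228 of them (2.70%). Their median log ratio was -0.0036, -0.0024, -0.021 and -0.0051 at 1, 2, 4 and 6 h, and 49.5%, 49.5%, 46.8% and 49.1% were positive. The share past 2-fold was 3.81%, 5.96%, 8.18% and 13.6%, against 8.58%, 6.49%, 7.05% and 21.6% of genes without the full CRE. At 4 h, where the median was lowest, 6 genes with a full CRE were past 2-fold on the positive side and 12 on the negative side. Among genes with the core, 7.38%, 5.91%, 6.39% and 17.5% were past 2-fold, against 8.94%, 6.73%, 7.39% and 23.1% of genes without it. Whether these groups differ beyond the spread between animals was not tested. The composite site was present in 72 genes (0.852%), with medians of 0.028, -0.0043, 0.022 and -0.012.

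Markers of other cells that a CA1 sample can hold moved on the same arrays. Of 7 measured choroid plexus markers, 6 passed 2-fold on the positive side at 1 h (median 0.49), against 5.12% of all genes. At 2 h 2 of 8 were past 2-fold and at 4 h 1 of 8, all negative, against 4.14% and 4.58% of all genes on that side. Over the 7 measured on every array, which leaves out Ttr, the log ratios summed to 3.02 at 1 h and to -0.13, -0.025 and -0.17 at 2, 4 and 6 h. Ttr had no ratio at 1 h and was at -0.66, -1.27 and -0.12 at 2, 4 and 6 h. With Ttr the sums at those times were -0.79, -1.30 and -0.28. Of the 7 without Ttr, Aqp1 and Igfbp2 were positive on all 4 arrays. Kl was negative on all 4, at -0.24, -0.34, -0.22 and -0.26 (mean -0.26, limma adjusted p 0.379). Endothelial markers had medians of -0.032, -0.24, -0.13 and -0.21, and were negative in 3, 5, 6 and 5 of 6 genes. Astrocyte markers had medians of -0.013, 0.12, 0.050 and 0.14, oligodendrocyte markers of -0.064, 0.066, 0.014 and 0.047, and microglial markers of 0.080, 0.0022, 0.15 and 0.14. Of the CA1 and other excitatory neuron markers, Wfs1 was positive on all 4 arrays (0.32, 0.10, 0.24 and 0.16) and Neurod6 negative (-0.011, -0.24, -0.37 and -0.26). The part of any of these cells in the ratios of the family was not tested.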

How the data were processed

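Each deposited file holds a log ratio for every spot of a 2-colour array, 1 array per time, read here as log10. Per the labels, green carried MK and red carried MK C+S throughout. How the authors made the log ratios, taken as log10 here (scanner, background correction, normalization, log base, direction) was not given in the sources used here, and scale, centring and direction remain unknown. Each deposited column had a median of 0 with exact zeros included.

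An exact 0 was read as not measured (22.7%, 9.34%, 7.39% and 10.0% of spots at 1, 2, 4 and 6 h). This left 12586, 14760, 15078 and 14650 spots. Columns were centred on the median of those spots. The platform annotation named 13738 spots with 1 gene, 52 with several and 2491 with none, and the last 2 kinds were left out. Measured spots were averaged per gene. No intensities were used, so precision is limited by the number of arrays and signal over background is unknown.

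Values at a single time were counted at 2-fold, with no p. The mean over arrays and the slope on hours were tested two-sided with limma 3.58.1 (R 4.3.3) over 8553 genes measured on all 4 arrays, with Benjamini-Hochberg adjustment at 0.05. The error there is the spread between times. Other settings covered log base, fold threshold, zeros, centring, summary of spots, running median, scaling, array weights, the array minimum, log2 of hours and leaving out each array. Array weights used statmod 1.5.0.

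The members and the lists were chosen with earlier results of these data known. Named genes were all members, the 4 with the largest absolute mean per list, any past 2-fold at 3 or more times, 9 genes set in the rule (Trib3, Crebbp and Ep300 not analysed here) and the 2 nearest patterns per member. Promoter groups were added after the files were read.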

Additional observations from a re-analysis of the deposited data

Results flagged for a closer look

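Among 61 named genes with a value on all 4 arrays, 4 had 1 array whose gap to the other 3 exceeded Dixon's limit, where chance alone flags about 1 in 20, or 3.05. The arrays are different times and not replicates, so such a gap may be a difference between times. No member of the CREB and ATF family was among the 4. Gsk3b was at -0.49 at 1 h, with the others between -0.061 and 0.026. Prkaca was at -0.27 at 6 h, with the others between -0.049 and -0.0071. Dcn was at 0.092 at 2 h, with the others between -0.18 and -0.14. Mobp was at -0.25 at 4 h, with the others between 0.13 and 0.16.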

How the results depend on the processing

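The mean of Atf1 kept its sign in all 11 alternatives run, from 0.18 to 0.24, with limma adjusted p from 0.256 to 0.709. Its slope had the other sign in 1 of 11. Creb1 and Crem kept the sign of their means, and Atf4 and Atf5 changed it in 1 of 11 each. No member was called in any alternative. At 1.5-fold, 1, 3, 2 and 1 members passed at 1, 2, 4 and 6 h, and with the running median removed 1, Atf1, passed at 6 h (0.31). With exact zeros kept as a ratio of 1, Atf2 was at -0.99 at 2 h and -0.52 at 4 h, since its unmeasured spot then counts. Genes called in the mean numbered 2 with the running median removed, 2 with array weights and 1 with at least 3 arrays, against 0. Leaving out each array in turn gave 0 to 1 in the mean, the 1 without the 4 h array, and 0 to 418 in the slope, the 418 without the 4 h array. Batf (0.16 per h), Chac1 (0.21) and Egr2 (0.18) were called in the slope without the 4 h array. All genes past 2-fold numbered 22, 23, 23 and 93 in order of time if logs are base 2 and 69, 59, 65 and 438 if natural, and past 1.5-fold 2299, 2457, 2377 and 4029, against 776, 668, 729 and 2211. Each log ratio already pairs the 2 RNAs of a time on 1 array, and the mean was tested on these ratios. No time had a replicate pair.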
